A study of Mus musculus with 9 samples.

Results

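The genes examined here encode the cytosolic and mitochondrial heat shock proteins Hsp90aa1, Hsp90ab1, Hspa8, Hspa1b, Hsph1, Dnaja1, Dnajb1, Hspd1, Hspe1 and Hspb1. Treg cells, in which they were measured, are a class of CD4+ lymphocytes that need Foxp3 for their identity and hold immune reactions in check. Every probe set annotated with exactly 1 of these symbols was taken, which gave 21 of the 22690 probe sets on the array and covered 9 of the 10 genes. Hsp90ab1 has no named probe set in the annotation used and is not analysed here. The arrays came from fl-CBP/Foxp3cre mice (3 arrays), fl-p300/Foxp3cre mice (3 arrays) and Foxp3cre control mice, which the sample names call WT (3 arrays), all on a C57Bl/6 background. CBP and p300 are related acetyltransferases of histones and other proteins, and a Cre recombinase expressed from Foxp3 deletes the floxed gene in Foxp3-expressing cells. CD4+CD25+ cells were separated with magnets. Age and sex are not given in the sources used here, and the replicates are described as independent samples.

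Heat shock proteins are molecular chaperones. HSP70 proteins bind unfolded stretches of client proteins and are driven by J proteins, which present clients and stimulate the ATPase, and by exchange factors, among them HSP110, which release the nucleotide. HSP90 completes the folding of kinases and steroid receptors, HSP60 and HSP10 form the folding chamber of mitochondria, and small heat shock proteins hold unfolded proteins without using ATP. In stressed cells the factor HSF1 binds heat shock elements, inverted repeats of GAA, and induces many of these genes, while T cells express several of them without stress and more strongly when they grow.

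The levels are RMA values on a log2 scale, on which a difference of 1 is a doubling. A probe set's level depends on its own probes, so levels were compared between arrays and not between probe sets. Array medians lay between 5.49 and 5.59, and arrays of 1 group correlated at 0.988 to 0.997. Cd3e, a chain of the T cell receptor complex, averaged 11.44 in CBP-deleted, 11.65 in p300-deleted and 11.48 in control arrays, and the brighter probe set of Il2ra, which encodes CD25, averaged 9.09, 9.29 and 9.05. Of 10 probe sets for 8 Treg and T cell genes, 7 were positive in CBP-deleted against control arrays (median 0.13) and 8 in p300-deleted against control arrays (median 0.30). Ctla4 rose in CBP-deleted cells (0.56, limma adjusted p = 0.0250), and Cd4 (0.66, adjusted p = 0.0314) and Cd3g (0.28, adjusted p = 0.0323) in p300-deleted cells. Foxp3, the 1 call in the other direction in both, averaged 2.87 ± 0.12 in CBP-deleted, 2.95 ± 0.32 in p300-deleted and 9.60 ± 0.14 in control arrays (SD, n = 3 each). The labels do not say whether its probe set reads the transcript of the Cre-bearing allele. The controls are called Foxp3cre control by genotype and WT by name, so it is not certain that they carry the Cre, and the effect of a deletion and that of the Cre allele cannot be told apart in a comparison with them. The single Crebbp probe set, for the gene of CBP, averaged 7.20 in CBP-deleted and 7.53 in control arrays, a difference of -0.33 that did not pass (limma adjusted p = 0.152), and the labels do not give the deleted exon. The gene of p300, Ep300, was not examined here. The mean of the 18S ribosomal RNA control probe sets was 7.39 to 7.999 in CBP-deleted, 7.88 to 9.62 in p300-deleted and 5.82 to 8.88 in control arrays. In bulk RNA, fewer cells of a type and less RNA per cell cannot be told apart.

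No heat shock protein probe set passed the threshold in either deletion against the control, and 2 of the 21 differed between the deletions. Hspb1 (1422943_a_at), the small heat shock protein HSP25, was 1.68-fold lower in CBP-deleted than in p300-deleted cells (log2 -0.75, SE 0.15). Hsp90aa1 (1438902_a_at), the stress-inducible cytosolic HSP90, was 1.30-fold higher in CBP-deleted than in p300-deleted cells (log2 0.38, SE 0.09). The mitochondrial chaperonin pair Hspd1 and Hspe1 stood higher in CBP-deleted cells in 2 of 3 probe sets without overlap with either other group, but did not pass. Over all probe sets, 10.3% were higher without overlap in CBP-deleted against control arrays and 14.6% in CBP-deleted against p300-deleted arrays. The share that lay above or below both other groups was not counted. All calls are from limma fitted to all 22626 probe sets that are not controls, with Benjamini-Hochberg adjustment over all of them and a threshold of 0.05. The plot of every array's value shows how narrow most of these spreads are: over the 9 arrays the probe sets ranged by 0.25 (Hspa8, 1455789_x_at) to 1.62 (Hsp90aa1, 1426645_at) log2 units.

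**Figure D1:**
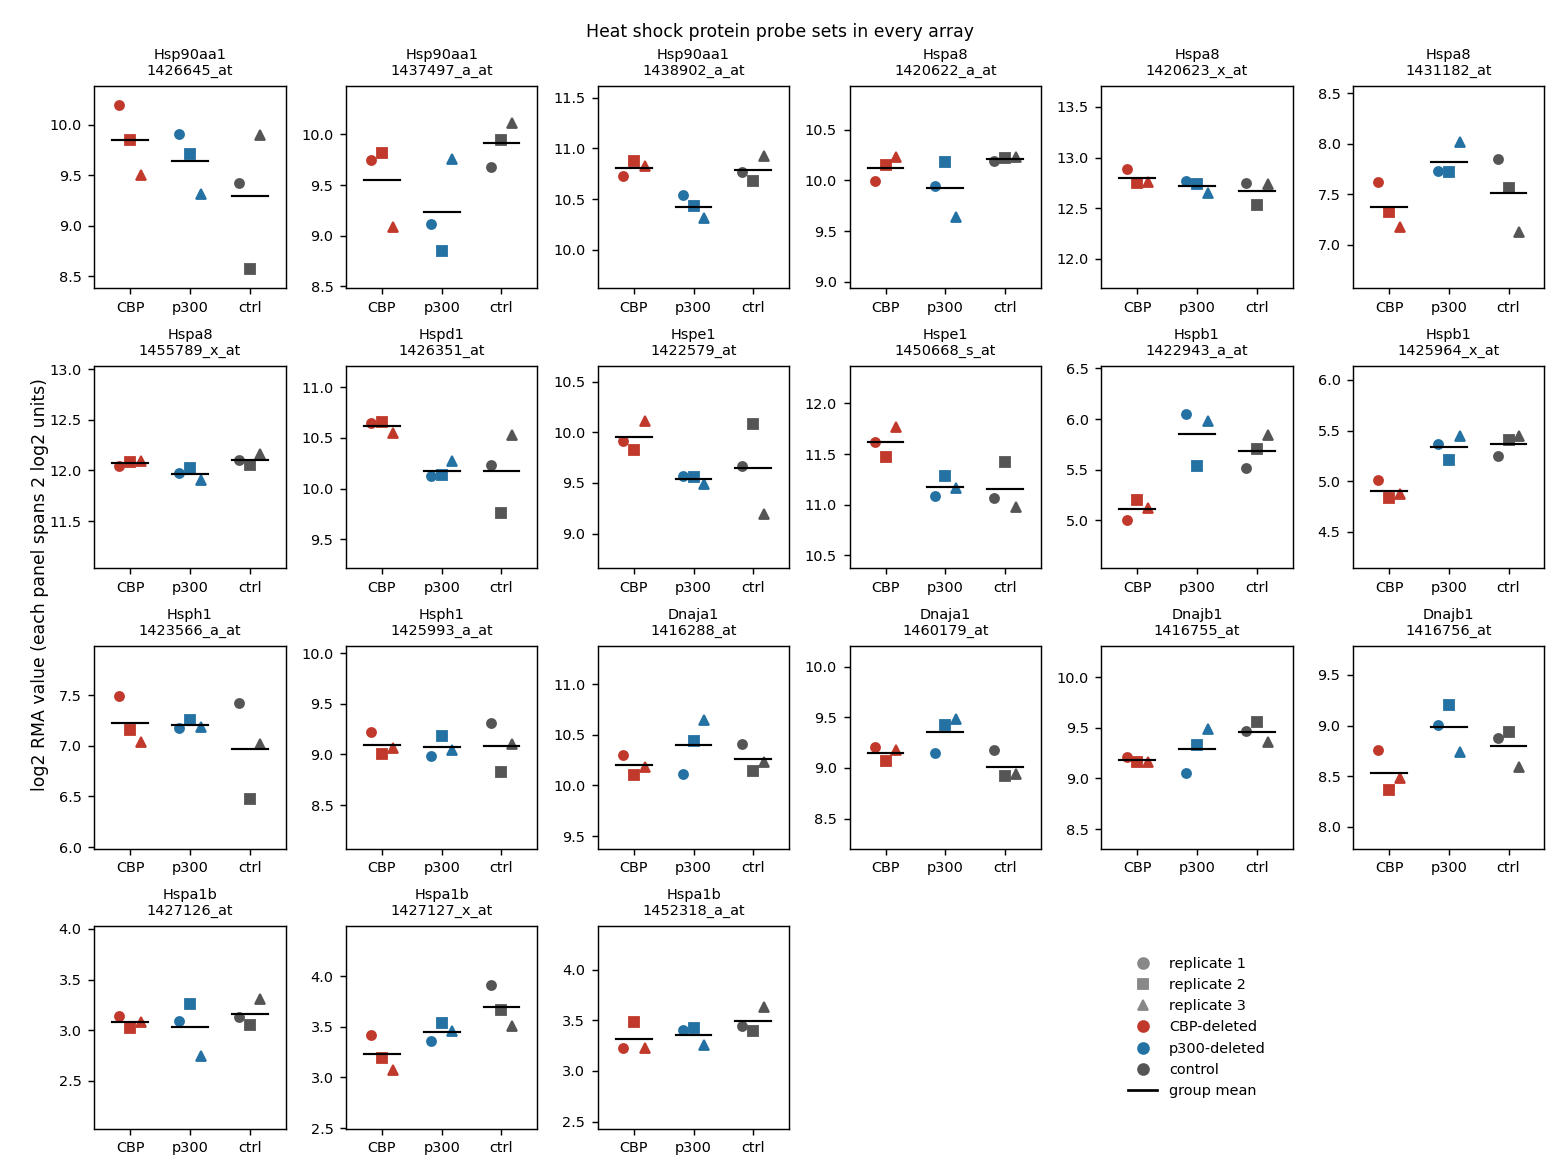
Log2 RMA values (y axis, each panel spanning the same number of log2 units) of the 21 heat shock protein probe sets in CBP-deleted, p300-deleted and control arrays (x axis), with 3 arrays per group as points and the group mean as a line. Hspb1 sits lowest in the CBP-deleted arrays in both of its panels, and the 3 Hsp90aa1 panels do not share a pattern.

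Among the CBP-deleted arrays set against the controls, 0 of 21 probe sets passed, where 2.5% of all probe sets did (1.26% higher and 1.25% lower). At an unadjusted p below 0.05 there were 6 (2 higher and 4 lower), where 18.9% of all probe sets lay below it. Over all probe sets, 9.42% were higher and 9.53% lower at that level. For 7 of the 21 (3 higher and 4 lower) no array of 1 group reached into the range of the other, beside 22.8% of all probe sets (10.3% higher and 12.6% lower). Positive differences numbered 9 of 21, beside 45.5%, and the median log2 difference was -0.06, beside -0.02 over all probe sets. In p300-deleted against control arrays, 0 of 21 passed, beside 2.62% of all probe sets (1.45% higher and 1.17% lower). There, 5 (1 higher and 4 lower) had an unadjusted p below 0.05, beside 17.3% (8.58% higher and 8.74% lower). The groups were apart for 3, all lower, beside 19.7% (9.26% higher and 10.5% lower). Positive differences numbered 10 of 21, beside 46.8%, and the median was -0.01 for the 21 and -0.01 over all probe sets. Between the deletions 2 of 21 passed (1 higher and 1 lower), beside 3.35% of all probe sets (2.1% higher and 1.25% lower). An unadjusted p below 0.05 was found for 8 (4 higher and 4 lower), beside 16.2% (8.72% higher and 7.46% lower). The groups were apart for 8 (5 higher and 3 lower), beside 27.5% (14.6% higher and 12.9% lower), and 12 of 21 were positive, beside 46.4%. As a share of the 21, those at an unadjusted p below 0.05 made up 28.6%, 23.8% and 38.1% in the 3 comparisons as given, and those without overlap 33.3%, 14.3% and 38.1%. Here the median difference of CBP-deleted minus p300-deleted was 0.03 for the 21 and -0.02 over all. The comparisons share arrays, so their counts are not independent of each other.

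**Figure D2:**
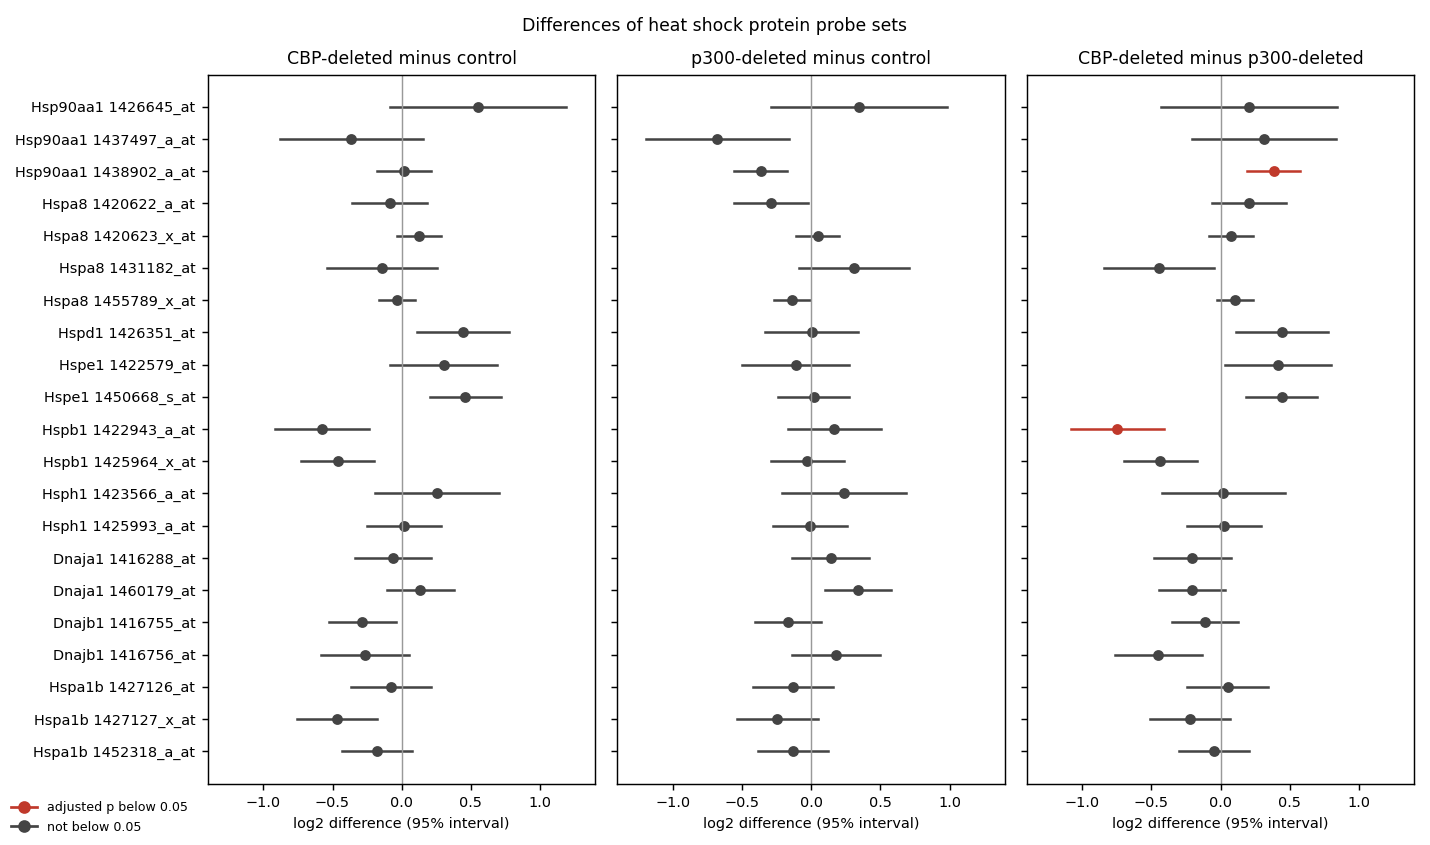
Log2 differences (x axis, points) with 95% intervals (lines) of the 21 probe sets (rows) for CBP-deleted minus control, p300-deleted minus control and CBP-deleted minus p300-deleted. Red marks an adjusted p below 0.05, which is reached by Hspb1 (-0.75) and Hsp90aa1 (0.38) in the last panel and by none in the other panels.

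Hspb1 encodes HSP25, the mouse counterpart of human HSP27, an ATP-independent chaperone that also acts on actin filaments, and lies on chromosome 5 at 135887919 to 135889563 (GRCm38.p6, as for all positions here). Its probe set 1422943_a_at read 5.004, 5.21 and 5.12 in CBP-deleted, 6.05, 5.54 and 5.98 in p300-deleted and 5.52, 5.70 and 5.84 in control arrays. The CBP-deleted arrays lay below all 6 others. CBP-deleted minus p300-deleted was -0.75 (SE 0.15, 95% interval -1.08 to -0.41, limma adjusted p = 0.0253). CBP-deleted minus control was -0.58 (SE 0.15, 95% interval -0.92 to -0.24) and just missed the threshold (adjusted p = 0.0722). p300-deleted minus control was 0.17 (95% interval -0.17 to 0.51, adjusted p = 0.636).

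The second Hspb1 probe set, 1425964_x_at, read 5.01, 4.83 and 4.87 in CBP-deleted, 5.37, 5.21 and 5.44 in p300-deleted and 5.25, 5.41 and 5.45 in control arrays. Its CBP-deleted arrays again lay below the other 6, while p300-deleted minus control was -0.03, opposite in sign to the first probe set. Its differences of -0.44 from p300-deleted (adjusted p = 0.0800) and -0.46 from control arrays (adjusted p = 0.0664) did not pass in this fit and did with array weights (adjusted p = 0.0262 and 0.0409). Both probe sets read in the middle of each array's values, with 43.3% to 54.6% of probe sets below them, and no detection call was used. The Hspb1 call was lost when any 1 CBP-deleted array, p300-deleted replicate 1 or p300-deleted replicate 3 was left out (adjusted p = 0.0855 to 0.109). With 1 probe set per gene, the brightest, it also passed against the control (-0.58, adjusted p = 0.0495), and so did the mean of both probe sets (-0.52, adjusted p = 0.0354).

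Promoters of Hsp90aa1, Hsp90ab1 and Hspa8 are not held in the RefSeq table for GRCm38.p6 and were not searched. Those of the other 7 of the 10 genes are held there, as 12 windows of 250 bases before and 50 after an annotated start. They were searched on both strands for the heat shock element core, GAANNTTC or TTCNNGAA, and for its 3-unit form, in which GAA and TTC alternate 3 times with 2 bases between units, so that overlapping core matches share a unit. A core match lay in at least 1 window of 6 of the 7 genes, all but Dnajb1, while 17% of 27025 genes in the table hold one. The 3-unit form lay in windows of Hspd1, Hspe1 and Hsph1, against 0.662% of all genes. The cyclic AMP response element TGACGTCA, the site of the CREB factors that recruit CBP and p300, was found for 0 of the 7 genes. It lay in 0 of the 12 windows, beside 1.79% of all windows, and 2.03% of all genes hold one. At so low a share, 0 of 7 says little. These are matches of letters and say nothing about binding in these cells. Stretches from -150 to -31, counted from the start site, are shown for Hspe1, whose element is shared with Hspd1, for Hspb1, the gene with the largest called difference, and for Hspa1b, the classical inducible gene. Capitals mark the core matches.
Hspe1, chr1:55087998-55088117, plus strand: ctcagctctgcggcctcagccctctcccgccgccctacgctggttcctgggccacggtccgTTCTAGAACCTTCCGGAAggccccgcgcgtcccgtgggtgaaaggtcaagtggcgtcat
Hspb1, chr5:135887769-135887888, plus strand: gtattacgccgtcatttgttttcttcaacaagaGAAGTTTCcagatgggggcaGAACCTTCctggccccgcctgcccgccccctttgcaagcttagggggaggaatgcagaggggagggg
Hspa1b, chr17:34959269-34959388, minus strand: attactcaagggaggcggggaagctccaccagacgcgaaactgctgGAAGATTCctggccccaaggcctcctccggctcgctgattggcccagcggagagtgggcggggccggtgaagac
The Hspe1 stretch holds 3 overlapping core matches in 1 run, the Hspb1 stretch holds 2 separate ones, and the Hspa1b stretch holds 1.

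**Figure D3:**
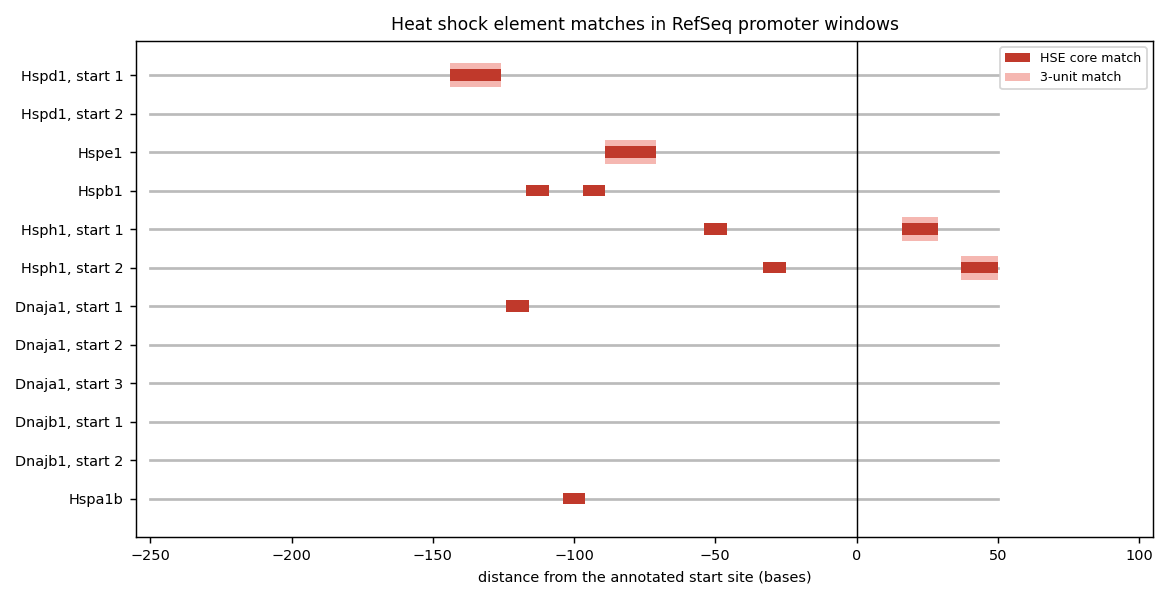
Positions of heat shock element matches (x axis, bases from the annotated start site) in the 12 RefSeq promoter windows of 7 genes (rows, grey lines), with core matches in red and 3-unit matches in pink. Hspd1 start 1 and Hspe1 each show a run of 3 core matches, and the 2 Dnajb1 windows show none.

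Hspd1 (HSP60) and Hspe1 (HSP10) form the mitochondrial chaperonin, in which Hspe1 is the lid of the Hspd1 chamber. The genes lie head to head on chromosome 1: Hspd1 at 55077833 to 55088243 on the minus strand, and Hspe1 at 55088148 to 55091317 on the plus strand. The run at 55088059 to 55088076, 4 alternating units that hold 2 overlapping 3-unit matches, begins at -89 from the Hspe1 start and at -144 from the inner of the 2 Hspd1 starts, read along each gene. Hspd1 (1426351_at) read 10.64, 10.66 and 10.55 in CBP-deleted, 10.12, 10.13 and 10.27 in p300-deleted and 10.23, 9.76 and 10.53 in control arrays. Hspe1 (1450668_s_at) read 11.62, 11.47 and 11.76 in CBP-deleted, 11.09, 11.28 and 11.16 in p300-deleted and 11.07, 11.43 and 10.98 in control arrays. In both probe sets the 3 CBP-deleted arrays lay above the other 6, while the p300-deleted and control arrays overlapped.

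CBP-deleted minus p300-deleted was 0.44 for Hspd1 (95% interval 0.11 to 0.77, adjusted p = 0.157) and 0.44 for this Hspe1 probe set (95% interval 0.19 to 0.70, adjusted p = 0.0677). CBP-deleted minus control was 0.44 for Hspd1 (adjusted p = 0.139) and 0.46 for Hspe1 (adjusted p = 0.0618). p300-deleted minus control was 0.00 for Hspd1 (95% interval -0.33 to 0.34) and 0.02 for Hspe1 (95% interval -0.24 to 0.27). The second Hspe1 probe set, 1422579_at, read 9.92, 9.83 and 10.11 in CBP-deleted, 9.56, 9.56 and 9.49 in p300-deleted and 9.67, 10.08 and 9.20 in control arrays. Its CBP-deleted arrays lay above the p300-deleted ones but not above control replicate 2. The controls spread more than the deleted groups in all 3 probe sets, as for Hspd1, whose SD was 0.06 in CBP-deleted arrays, 0.08 in p300-deleted ones and 0.39 in controls.

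The calls depended on the controls left out and on the fit. Without control replicate 2 the Hspe1 probe set 1450668_s_at passed against the control (0.59, adjusted p = 0.0162), and without control replicate 3 Hspd1 passed (0.62, adjusted p = 0.0147). With all controls kept, this Hspe1 probe set also passed against the control with quantile normalisation (adjusted p = 0.0486), the brightest probe set per gene (0.0437) and array weights (0.0124), and Hspd1 with array weights (0.0249). Over all alternatives the difference from the control passed in 4 of 18 for Hspe1 (1450668_s_at) and in 2 of 19 for Hspd1. Between the deletions, a fit of only those groups called Hspd1 (adjusted p = 0.00463), Hspe1 1450668_s_at (0.0126) and Hspe1 1422579_at (0.0152). In all, 4 of 19 alternatives called Hspd1 and 5 of 18 called Hspe1 1450668_s_at there. In those 2 controls the genes stood opposite: control replicate 2 had the lowest Hspd1 and the highest Hspe1 of the controls, and control replicate 3 the highest Hspd1 and the lowest Hspe1. The 3' minus 5' difference of the Gapdh control probe sets was -0.15 to 0.11 in CBP-deleted arrays, 0.06 to 0.17 in p300-deleted arrays and 0.25, 0.60 and 0.20 in control replicates 1, 2 and 3, so that control replicate 2 stood apart. The 18S control probe sets read 6.20 in control replicate 2 and 8.88 in control replicate 3. With the 18S level as a covariate, CBP-deleted minus control was 0.35 for Hspd1 and 0.49 for Hspe1 (1450668_s_at), beside 0.44 and 0.46 without it. The part of the 3' minus 5' difference was not tested.

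**Figure D4:**
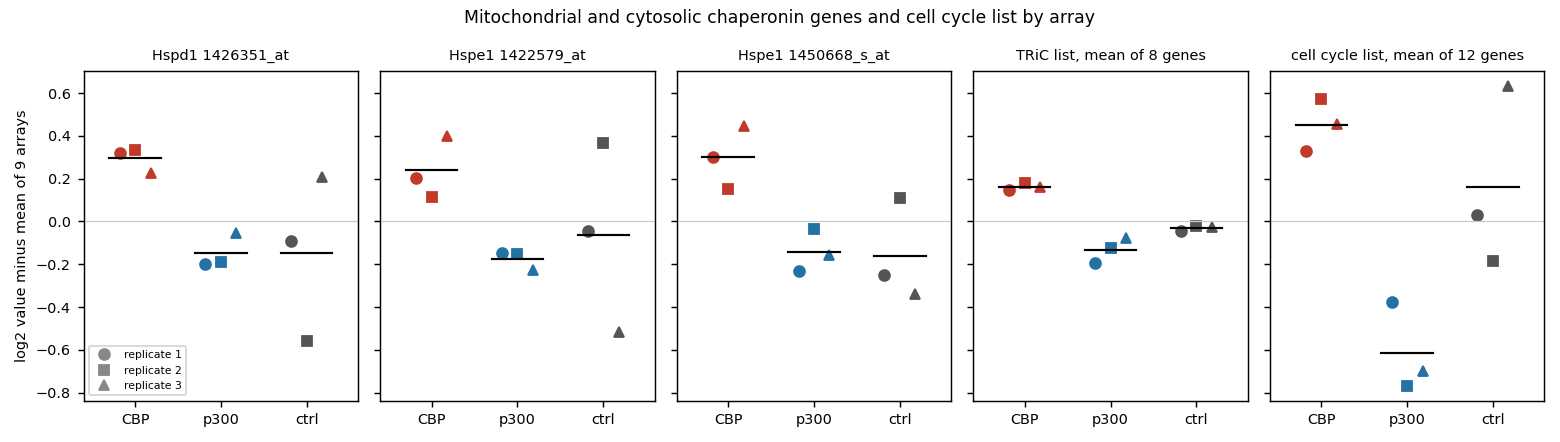
Log2 values minus the mean of the 9 arrays (y axis) for Hspd1, the 2 Hspe1 probe sets, the mean of 8 TRiC genes and the mean of 12 cell cycle genes, by group (x axis), with arrays as points and group means as lines. CBP-deleted arrays lie above p300-deleted arrays in all 5 panels, and the controls spread widely except for TRiC.

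Genes of the cell cycle differed between the deletions in the same direction. The mean of 12 cell cycle genes was 9.18 to 9.42 in CBP-deleted, 8.08 to 8.47 in p300-deleted and 8.66 to 9.48 in control arrays. Between the deletions 16 of its 22 probe sets were higher in CBP-deleted cells and 0 were lower (72.7%, beside 3.35% of all probe sets). In p300-deleted against control cells 12 were lower and 0 were higher (54.5%, beside 2.62%). Against the control, 0 cell cycle probe sets passed in CBP-deleted cells, beside 2.5% of all probe sets. There, 5 had an unadjusted p below 0.05 (22.7%, beside 18.9%). Positive differences numbered 20 of 22 in that comparison (90.9%, beside 45.5% of all probe sets), with a median of 0.16. That count was 14 to 20 without single arrays. The 16 became 6 without CBP-deleted replicate 2, 9 without CBP-deleted replicate 3 and 8 without p300-deleted replicate 2. The 12 became 2 without p300-deleted replicate 2, 7 without p300-deleted replicate 3, 5 without control replicate 1, 7 with the replicate block and 4 with only the groups compared. The 0 in CBP-deleted cells became 7 without control replicate 3 and 5 with array weights, all higher. The part of this difference in the chaperonin and Hsp90aa1 values was not tested.

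Hsp90aa1 encodes the inducible cytosolic HSP90 lies on chromosome 12 at 110691036 to 110696395, and was read by 3 probe sets. The brightest, 1438902_a_at, read 10.73, 10.87 and 10.83 in CBP-deleted, 10.54, 10.43 and 10.31 in p300-deleted and 10.77, 10.68 and 10.93 in control arrays. The p300-deleted arrays lay below all 6 others, and the CBP-deleted and control arrays overlapped. CBP-deleted minus p300-deleted was 0.38 (SE 0.09, 95% interval 0.19 to 0.58, adjusted p = 0.0391). p300-deleted minus control was -0.37 (SE 0.09, 95% interval -0.56 to -0.17, adjusted p = 0.0539), and CBP-deleted minus control was 0.02 (95% interval -0.18 to 0.21, adjusted p = 0.939). The call between the deletions was lost without any 1 of the 6 arrays compared or without control replicate 1 (adjusted p = 0.0580 to 0.174). The difference of p300-deleted from control arrays passed in 6 of 19 alternatives: without control replicate 2 (-0.42, adjusted p = 0.0337), with array medians subtracted, quantile normalisation, array weights, the dimmest 25% left out and the brightest probe set per gene (adjusted p = 0.0258 to 0.0470).

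The other 2 Hsp90aa1 probe sets did not pass in any comparison. The probe set 1426645_at read 10.19, 9.84 and 9.50 in CBP-deleted, 9.90, 9.71 and 9.32 in p300-deleted and 9.42, 8.57 and 9.90 in control arrays, so that control replicate 2 stood apart below. Its CBP-deleted minus control difference was 0.55 (95% interval -0.08 to 1.18, adjusted p = 0.337) and 0.19 without control replicate 2. The probe set 1437497_a_at read 9.75, 9.82 and 9.09 in CBP-deleted, 9.11, 8.85 and 9.75 in p300-deleted and 9.68, 9.95 and 10.11 in control arrays. All groups overlapped for it. Its p300-deleted minus control difference was -0.68 (95% interval -1.20 to -0.16, limma adjusted p = 0.158). Its CBP-deleted minus p300-deleted difference was 0.31 (adjusted p = 0.579). The value of 1426645_at minus that of 1437497_a_at ran from -1.375 in 1 array to 0.86 in another, which no other pair of probe sets for 1 gene exceeded. Between the deletions all 3 had the same sign. In p300-deleted against control arrays 1437497_a_at and 1438902_a_at were both lower, while 1426645_at was higher (0.35, adjusted p = 0.601). In CBP-deleted against control arrays 1437497_a_at was lower (-0.36, adjusted p = 0.450) and the other 2 were higher. Where in the transcript each probe set lies is not given in the sources used here.

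Hspa8 (HSC70) is the constitutive HSP70 of the cytosol, on chromosome 9 at 40801276 to 40805202. Its brightest probe set, 1420623_x_at, had the second smallest range of the 21, 0.35, with 12.88, 12.75 and 12.76 in CBP-deleted, 12.77, 12.74 and 12.65 in p300-deleted and 12.75, 12.53 and 12.74 in control arrays. The lowest CBP-deleted array lay just above the highest control. CBP-deleted minus control was 0.12 (95% interval -0.03 to 0.28) and p300-deleted minus control was 0.05 (95% interval -0.11 to 0.20). The probe set 1455789_x_at read 12.04, 12.08 and 12.09 in CBP-deleted, 11.98, 12.02 and 11.91 in p300-deleted and 12.10, 12.05 and 12.16 in control arrays, and p300-deleted minus control was -0.14 (adjusted p = 0.252). The third, 1420622_a_at, was -0.29 in the same comparison (adjusted p = 0.246), with the p300-deleted arrays below the controls in both. The dimmest, 1431182_at, went the other way, with 7.73, 7.72 and 8.02 in p300-deleted against 7.85, 7.57 and 7.13 in control arrays (0.31, adjusted p = 0.424). Its CBP-deleted arrays, at 7.62, 7.33 and 7.18, lay below the p300-deleted ones (-0.45, limma adjusted p = 0.240). That difference was opposite in sign to those of the other Hspa8 probe sets. It passed with the 18S level as a covariate (-0.595, adjusted p = 0.0470).

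Hspa1b (chromosome 17, 34956429 to 34959238), the HSP70 that heat and other stresses induce, read at the bottom of the arrays in its 3 probe sets. The values were 3.02 to 3.48 in CBP-deleted arrays, 2.75 to 3.53 in p300-deleted arrays and 3.05 to 3.91 in controls, leaving 13.02% to 33.2% of probe sets below. None of the 9 arrays read high. Hspa1a is a near-identical neighbour of Hspa1b on chromosome 17, and probe sets for 1 may read the other. The single lower value with no overlap was 1427127_x_at, at 3.41, 3.19 and 3.08 in CBP-deleted against 3.91, 3.67 and 3.51 in control arrays (-0.47, adjusted p = 0.0882). At this level the reading is not told from background. It passed without control replicate 3 (-0.56, adjusted p = 0.0372) and with array weights (-0.58, adjusted p = 0.0141).

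Hsph1 (HSP105; chromosome 5, 149616843 to 149636498), an HSP110 that recharges HSP70 with ATP, did not pass in any comparison. Its brighter probe set 1425993_a_at averaged 9.10 ± 0.11 in CBP-deleted, 9.07 ± 0.10 in p300-deleted and 9.08 ± 0.24 in control arrays (SD, n = 3 each). The 3 differences lay within 0.03 of 0, with 95% intervals inside -0.28 to 0.29. The dimmer probe set 1423566_a_at read 6.48 in control replicate 2, the lowest of its 9 values, against 7.42 and 7.02 in the other controls.

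The J proteins Dnaja1 (chromosome 4, 40722468 to 40734965) and Dnajb1 (chromosome 8, 83608175 to 83612653) had 2 probe sets each, and none passed. Dnajb1, the J protein partner of inducible HSP70, was read by 1416756_at at 8.75, 8.36 and 8.48 in CBP-deleted, 9.004, 9.21 and 8.74 in p300-deleted and 8.88, 8.93 and 8.59 in control arrays. CBP-deleted minus p300-deleted was -0.45 (95% interval -0.77 to -0.13, adjusted p = 0.130), with CBP-deleted replicate 1 just above p300-deleted replicate 3, and it passed with array weights (adjusted p = 0.0290). Its second probe set 1416755_at read 9.21, 9.16 and 9.16 in CBP-deleted arrays, below the 9.46, 9.56 and 9.36 of the controls (-0.28, adjusted p = 0.182). Dnaja1, a farnesylated J protein that works with HSC70, was read by 1460179_at at 9.15, 9.43 and 9.49 in p300-deleted and 9.18, 8.92 and 8.94 in control arrays, which overlapped in 1 array each. p300-deleted minus control was 0.34 by this probe set (95% interval 0.10 to 0.58, adjusted p = 0.129) and 0.14 by 1416288_at (adjusted p = 0.629).

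The rest of the chaperone network was read by 139 probe sets of 70 genes in 10 lists. In CBP-deleted against control cells 1 rose and 0 fell, 0.719% of the 139 beside 2.5% of all probe sets, with 96 of 139 positive and a median of 0.08. At an unadjusted p below 0.05 there were 27 (19.4%, beside 18.9%). It was Hspa4l, an HSP110 family member, at 6.82 ± 0.09 in CBP-deleted and 6.11 ± 0.31 in control arrays (SD, n = 3 each; 0.71, SE 0.15, adjusted p = 0.0359). Its other probe set, 1449010_at, differed by 0.15 (adjusted p = 0.532). In p300-deleted against control cells 0 passed, beside 2.62% of all probe sets, 25 had an unadjusted p below 0.05 (18%, beside 17.3%) and the median was -0.03. Between the deletions 5 were higher and 1 was lower in CBP-deleted cells, 4.32% of the 139 beside 3.35% of all probe sets. There, 36 had an unadjusted p below 0.05 (25.9%, beside 16.2%). The median was 0.09, beside -0.02 over all probe sets.

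The cytosolic chaperonin TRiC, which folds actin and tubulin, held 3 of the 5 higher ones. Of its 23 probe sets for 8 subunits, 22 were positive between the deletions, where 46.4% of all probe sets were, and the median was 0.27. Cct6a was higher by 0.39 (SE 0.08, adjusted p = 0.0249) and 0.37 (adjusted p = 0.0279) in its 2 probe sets, and 1 of 6 Cct3 probe sets, 1416024_x_at, by 0.27 (adjusted p = 0.0482). The mean of the 8 subunits was 11.001 to 11.03 in CBP-deleted, 10.66 to 10.78 in p300-deleted and 10.81 to 10.83 in control arrays, without overlap between any of the groups. Against the control 0 passed in either deletion, with 21 of 23 positive in CBP-deleted and 4 of 23 in p300-deleted cells, and 7 (30.4%, beside 18.9%) and 3 (13%, beside 17.3%) had an unadjusted p below 0.05. Between the deletions the 3 calls were 13% of the list, beside 3.35% of all probe sets, and 15 (65.2%, beside 16.2%) had an unadjusted p below 0.05. The count of 3 ranged from 0 to 9 when single arrays were left out, while 21 or 22 of the 23 stayed positive. It was 0 without CBP-deleted replicate 2 or 3 or p300-deleted replicate 1 or 2, 1 without CBP-deleted replicate 1 or p300-deleted replicate 3, and 9 without control replicate 2 or 3. With all arrays kept it was 14 with array weights, 11 with only the groups compared, 7 with the dimmest 25% left out and 0 without a trend. It was 2 without control replicate 1, with the replicate block or with quantile normalisation.

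The other calls between the deletions were spread over roles. Hspa9 (mortalin), the HSP70 of mitochondria, was higher by 1418503_at at 8.71 ± 0.05 in CBP-deleted cells against 8.33 ± 0.09 in p300-deleted cells (SD, n = 3 each; 0.38, adjusted p = 0.0396), while its other 3 probe sets did not pass. Bag2, a co-chaperone that inhibits the ubiquitin ligase CHIP, was higher by 0.68 (adjusted p = 0.0288). Dnajb2, a J protein that carries clients to the proteasome, was lower, at -0.68 (adjusted p = 0.0316). The 21 probe sets of mitochondrial chaperones and proteases had a median of 0.13, the 7 of exchange factors 0.10, the 27 of other J proteins 0.02 and the 11 of other HSP70 and HSP110 genes 0.09.

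Of the heat shock factor list, 3 of 4 genes were measured, Hsf2, Hsf4 and the regulator Hsbp1, and none of their 4 probe sets passed in any comparison. Hsf1 is not analysed here. Their medians were 0.11 in CBP-deleted against control, 0.05 in p300-deleted against control and 0.14 between the deletions. The 18 probe sets of HSP90 co-chaperones had 0 calls in all 3 comparisons, with medians of -0.06 in CBP-deleted against control, -0.13 in p300-deleted against control and 0.10 between the deletions, and 4 (22.2%), 5 (27.8%) and 2 (11.1%) at an unadjusted p below 0.05, beside 18.9%, 17.3% and 16.2% of all probe sets. Prefoldin (9 probe sets), other small heat shock proteins (12) and the endoplasmic reticulum paralogues (7) had 0 calls as well, with medians between the deletions of -0.02, -0.04 and -0.19.

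**Figure D5:**
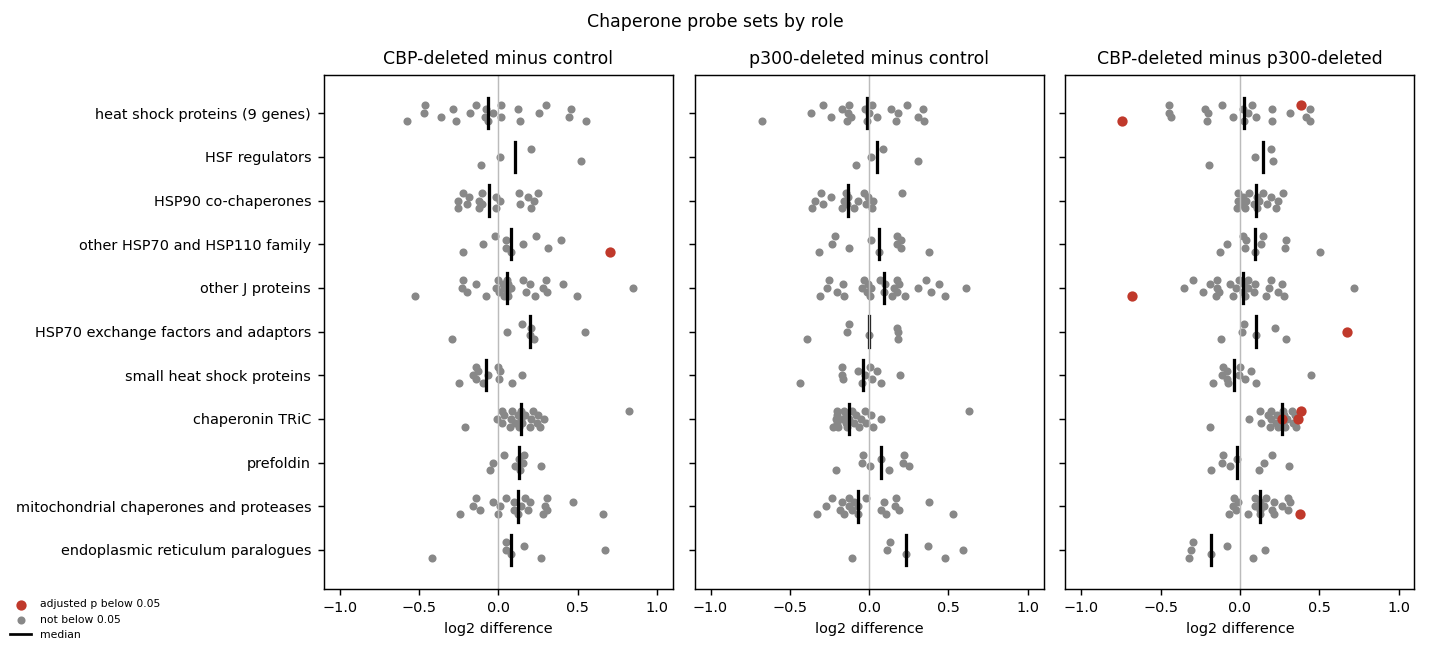
Log2 differences (x axis) of the probe sets of the 9 heat shock protein genes and of 10 chaperone lists (rows) in the 3 comparisons, 1 point per probe set, red for an adjusted p below 0.05 and a black line for the median. TRiC lies to the right of 0 in CBP-deleted minus p300-deleted (median 0.27), and few points are red elsewhere.

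Markers of other cells and immediate early genes differed between the groups too. Between the deletions, 9 of 15 immediate early probe sets were lower in CBP-deleted cells (60%, beside 3.35% of all probe sets) and 0 higher. The mean of the 12 genes was 9.34 to 9.60 in CBP-deleted, 9.97 to 10.30 in p300-deleted and 9.56 to 9.97 in control arrays. Of 11 plasma cell probe sets 8, from 4 genes, were lower in CBP-deleted than in p300-deleted cells (72.7%, beside 3.35%). The list means were 7.92 to 8.22, 8.65 to 9.11 and 7.97 to 8.09 in CBP-deleted, p300-deleted and control arrays. The mast cell and basophil list had means of 4.59 to 5.82, 5.69 to 6.51 and 4.61 to 4.91. Of its 5 probe sets 1 was lower in CBP-deleted than in p300-deleted cells (20%, beside 3.35%). Neutrophil and myeloid genes had means of 5.38 to 7.19, 5.52 to 7.22 and 4.28 to 5.22, with 0 of 10 passing between the deletions (beside 3.35%). B cell genes (7 probe sets) had means of 6.43 to 7.04, 6.78 to 7.58 and 7.40 to 7.63. Of these probe sets 2 were lower in CBP-deleted than in control cells (28.6%, beside 2.5% of all probe sets). CD8 and NK genes had means of 6.44 to 6.93, 6.82 to 7.12 and 6.40 to 6.45, and the 2 erythroid genes 3.57 to 3.78, 3.67 to 4.06 and 4.02 to 4.64. Against the control, 4 of 15 immediate early probe sets were lower in CBP-deleted cells (26.7%, beside 2.5%). There, 2 of 7 CD8 and NK probe sets were higher (28.6%, beside 2.5%). In p300-deleted against control cells, 2.62% of all probe sets passed. There, 7 of 11 plasma cell probe sets (63.6%, from 4 genes) and 3 of 15 immediate early probe sets (20%) were higher. So were 2 of 5 mast cell and basophil probe sets (40%) and 1 of 10 neutrophil and myeloid ones (10%). The part of all these lists in the Hspb1, Hsp90aa1 and TRiC differences was not tested.

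Genes with the array pattern most like a heat shock protein were sought by the root mean square difference of values centred over the 9 arrays, among genes at least 0.5 times as variable. For Hsp90aa1 (1438902_a_at) they were Snx5, Tubb4b and Pold1, at 0.06 to 0.07 log2 units among 10789 genes. For Hspa8 (1420623_x_at) they were Mlf2, Mcts2 and Anapc4, at 0.04 to 0.05 among 12102 genes. For Hspd1 they were Slc43a3, Armcx4 and Nsmf, at 0.07 to 0.10 among 7535 genes.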

How the data were processed

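Single-channel Affymetrix 3' arrays measured total RNA, amplified and labelled with biotin per the labels. The deposited values are on a log2 scale, 1 per probe set and array; per the submitters' processing notes the authors used RMA, with version and annotation settings not given in the sources used here. They were used without further scaling or filter. Of 22690 probe sets 64 are controls; of the remaining 22626, 20380 carry 1 gene symbol in the platform annotation, 691 several and 1555 are unnamed. Gene positions and promoters are from RefSeq, GRCm38.p6.

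limma 3.58.1 in R 4.3.3 fitted the 3 group means to the 9 arrays together, leaving 6 residual degrees of freedom, with no covariate, empirical Bayes moderation with a trend, two-sided tests and Benjamini-Hochberg adjustment over the 22626 probe sets at 0.05. With 3 arrays a group, the smallest p of an exact permutation test is 0.1, so none was used. Standard errors are those of the fit. The number of arrays limits the precision; arrays have no read depth. The p-values set each difference against the spread between samples of the same group, pooled over the 3 groups and moderated. The spread of the controls therefore also enters the comparison between the deletions. The procedure was tested on simulated data, with independent normal noise of equal spread in all groups and changes planted in the CBP-deleted arrays only. That simulation held no unequal group spread, correlated genes or array effects, so it does not show how the procedure behaves with them. Members, gene lists and tests were chosen with earlier results of these data known. Named beyond the members are list genes with a call, the 3 most alike in array pattern to each of 3 members, and the context genes. Alternatives were each array left out, a replicate block, scaling, moderation, array weights, an 18S covariate, filters, and 1 value per gene.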

Additional observations from a re-analysis of the deposited data

How the results depend on the processing

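Over 20 alternatives, 1143 values of single heat shock protein probe sets were recomputed. In 1060 the sign and the side of the threshold were those reported, 40 changed sign with no call under either setting, 14 lost and 29 gained a call, and 0 called values changed sign. The count of heat shock protein probe sets called in CBP-deleted against control cells was 0 and became 1 with quantile normalisation, 4 with array weights, 2 with the brightest probe set per gene, 1 with the mean of a gene's probe sets, and 0 to 2 without single arrays. In p300-deleted against control cells the count of 0 became 1 with array medians subtracted, quantile normalisation, array weights, the dimmest 25% left out or the brightest probe set, and 0 to 1 without single arrays. Between the deletions the 2 calls became 1 with the replicate block, without a trend or with the mean of a gene's probe sets, 6 with array weights, 5 with only the groups compared, and 0 to 4 without single arrays. Over all probe sets, the 566 calls of CBP-deleted against control became 262 with the replicate block, 2302 with array weights, 193 with only the groups compared, 349 with the 18S covariate and 85 to 1624 without single arrays. The 592 of p300-deleted against control became 278, 1388, 130 and 184 under these settings, 356 with the mean of a gene's probe sets and 74 to 1377 without single arrays. They became 601 with array medians subtracted and 681 with the dimmest 25% left out. The 758 between the deletions became 2011 with array weights, 1733 with only the groups compared and 134 to 1270 without single arrays. Fewer arrays and fewer degrees of freedom enter some of these fits; the cause was otherwise not tested. Deviations from the group means correlated at -0.22 to 0.26 over all probe sets between arrays with the same replicate number. For arrays with different numbers the range was -0.23 to 0.21. With 3 arrays a group, these ranges cannot settle whether the numbers mark a shared batch, so the replicate block is only an alternative. Under the block Hspb1 kept its call between the deletions (limma adjusted p = 0.0493) and Hsp90aa1 did not (adjusted p = 0.0871).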
